A study of Mus musculus and Macaca nemestrina with 20 samples.

Results

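The genes described here make up antigen presentation by the major histocompatibility complex (MHC), measured in dorsal root ganglia (DRG), the clusters of sensory neuron cell bodies and their supporting cells beside the spinal cord. A list of 34 mouse gene symbols was matched by symbol, and 33 of them have a row among the 29766 mouse genes. In capitals, without the mouse-only H2 genes, 23 symbols were matched among 35194 monkey genes. After a filter on low counts, 32 of the members were tested in mice, with 15654 genes in all, and 22 in monkeys, with 17988 genes in all. Ifi30 is not analysed here in mice, H2-Oa did not pass the mouse filter, and CD80 did not pass the monkey filter.

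Bulk RNA sequencing was deposited for 20 libraries. In mice, 7 libraries labelled as ADAM17 knockout were compared with 7 control libraries labelled ADAM17 flox, a genotype in which the gene carries loxP sites. ADAM17 is a membrane protease that releases cytokines and growth factors from the cell surface. Labelled knockout libraries 1 to 4 and flox libraries 1 to 3 form batch 1, and labelled knockout libraries 5 to 7 and flox libraries 4 to 7 form batch 2, as the labels number them. In pig-tailed monkeys (Macaca nemestrina), 3 libraries came from DRG supplying skin that had received SADBE, and 3 from DRG of control skin, labelled vehicle. SADBE, squaric acid dibutyl ester, is used to provoke contact allergy. Total RNA came from frozen tissue in both species. The labels give no age, sex, strain, Cre driver or deleted exon for the mice, no age, sex, dose or time for the monkeys, and no number of animals in a library. P-values therefore measure the spread between libraries only.

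MHC class I molecules, a heavy chain paired with beta-2 microglobulin, sit on most cells and show T cells peptides cut from proteins inside the cell. The peptides are made by the proteasome, in which interferon can replace standard subunits by the inducible ones of the immunoproteasome, and are carried into the endoplasmic reticulum by the TAP transporter. MHC class II molecules are made mainly by professional antigen presenting cells such as macrophages, dendritic cells and B cells, and show peptides from engulfed material. Their chains travel with the invariant chain Cd74, which lysosomal proteases remove before H2-DM loads a peptide. In ganglia, class II transcripts are usually ascribed to resident and infiltrating immune cells rather than to neurons.

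The libraries differed in ways that touch every comparison. Total estimated counts, in units of 1000000, were 46.9 to 52.1 in flox and 12.1 to 14.7 in labelled knockout libraries of batch 1, 27.9 to 36.0 over both genotypes of batch 2, and 9.02 to 27.1 in monkeys, so depth and genotype go together in batch 1. Adam17 itself was at 4.70 to 9.18 TPM (transcripts per 1000000, a level corrected for transcript length) in libraries labelled knockout and 5.75 to 9.51 TPM in flox, with a log2 fold change of 0.029 ± 0.18 (standard error, SE) and an adjusted p of 0.930 in the quasi-likelihood test of edgeR. The gene total cannot show the loss of one exon or a loss in some of the cells, so it does not check the labels, and the genotype is written below as labelled. The labelled knockout library 4 stood apart from the other 3 labelled knockout libraries of its batch. Its chi-square per gene against them was 83.4 to 125, where they differed from one another by 21.0 to 32.9. Skeletal muscle markers summed to 13.8 to 2010.3 TPM in labelled knockout libraries of batch 1 and to 33.4 to 4007 TPM in flox libraries of batch 2. Labelled knockout library 5 differed from 6 and 7 by 139 and 152, and these from each other by 30.1. Flox libraries differed from one another by 75.4 to 207 in batch 1 and by 42.8 to 71.4 in batch 2, so library 4 was not alone in this. The chi-square also rises with depth, which differed between these groups. Labelled knockout libraries 6 and 7 held 19.2 and 21.95 TPM of the Y-linked gene Ddx3y, which was at most 0.129 TPM in the other 12 mouse libraries. Among monkeys, SADBE libraries 2 and 3 differed by a chi-square per gene of 26.5, against 269 to 507 for the other pairs within a group, which is still far more than the value of about 1 that sampling noise alone gives. Neuronal markers were present throughout, with the sum over the marker list between 1239 and 5337 TPM in mice and between 763 and 3737 TPM in monkeys.

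Levels per transcript length were highest for Ctsl and B2m in each of the 4 groups of mouse libraries, and the order below them differed between batches. In batch 1 H2-T23 and H2-D1 came next, at 297 ± 72.2 and 241 ± 31.1 TPM in flox libraries (mean ± SD, n = 3), above Cd74 at 147 ± 25.1 and Psme2 at 141 ± 8.83 TPM. In flox libraries of batch 2, the protease cathepsin L (Ctsl) was at 475 ± 50.5 TPM and beta-2 microglobulin (B2m) at 444 ± 62.1 TPM (mean ± SD, n = 4), which lie within 1 SD of each other. Cd74 was at 295 ± 42.9 TPM, the class I heavy chain H2-D1 at 221 ± 16.1 TPM, and the class II beta chain H2-Ab1 at 193 ± 27.3 TPM. H2-T23, a non-classical class I chain, stood at 170.2 ± 24.8 TPM, within 1 SD of H2-Ab1 and of the class II alpha chain H2-Aa at 167 ± 17.6 TPM. H2-Eb1 at 116 ± 17.8 TPM, H2-K1 at 78.4 ± 9.31 TPM and H2-M3 at 17.5 ± 2.58 TPM followed in that order. H2-Ea, the partner of H2-Eb1 and no member of the list, had 0 counts in 14 of 14 mouse libraries. By counting error alone this allows up to 0.0576 to 0.248 counts per 1000000 total counts of a library. Values in CPM below are counts per 1000000 of normalised library size. The inducible proteasome subunits were lower, from Psmb9 at 22.7 ± 2.43 TPM to Psmb10 at 67.2 ± 3.29 TPM, while the proteasome activator subunit Psme2 reached 307 ± 7.49 TPM. Transactivators and costimulatory ligands were scarce: Ciita was at 0.379 ± 0.313 TPM, Nlrc5 at 0.184 ± 0.162 TPM and Cd80 at 0.286 ± 0.268 TPM. Deposited mouse TPM columns do not sum to the same total in each library (601 to 834 in batch 1 and 954 to 979 in batch 2, in units of 1000 TPM), so TPM is used here for levels within a library, and comparisons rest on counts.

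The members are a mixture of linked and scattered genes. Of the 34 symbols, 16 lie on chromosome 17 between positions 33915899 and 37274484 of GRCm38, a span of 3.36 Mb that holds the MHC. Promoter windows of RefSeq (GRCm38.p6) were found for 27 members, and the 250 bases before each start were searched on both strands for the X box core CTNGNAAC, the Y box ATTGG and the interferon regulatory factor (IRF) core AANTGAAA. X and Y boxes are the elements through which CIITA and NLRC5, the class II and class I transactivators, are recruited. An X box followed after 10 to 40 bases by a Y box on the strand of the gene was found in 51 of 32851 windows (0.155%), and 4 of these windows belonged to members: H2-Aa, H2-Eb1, H2-DMb1 and H2-Ob. Single motifs were common, with the X box core in 10.9%, the Y box in 33.8% and the IRF core in 5.7% of all windows. The IRF core was found in 4 of 5 class I chains, and in none of the 6 class II members with a window. The 3 stretches shown first carry the paired boxes of class II genes and the last 2 the IRF core and Y box of class I genes, so that both arrangements can be seen. Each is written 5′ to 3′ on the strand of the gene with the motif matches in capitals, which do not overlap. Positions are H2-Aa chr17:34287863-34287911 (minus strand), H2-Eb1 chr17:34305769-34305816 (plus), H2-Ob chr17:34238811-34238856 (plus), H2-K1 chr17:34000355-34000441 (minus) and B2m chr2:122147546-122147642 (plus). The IRF core of H2-K1 is read on the opposite strand. A match is a description of these letters and not a binding site.
H2-Aa: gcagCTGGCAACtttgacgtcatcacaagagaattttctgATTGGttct
H2-Eb1: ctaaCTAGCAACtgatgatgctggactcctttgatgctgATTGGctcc
H2-Ob: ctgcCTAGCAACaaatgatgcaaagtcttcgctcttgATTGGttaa
H2-K1: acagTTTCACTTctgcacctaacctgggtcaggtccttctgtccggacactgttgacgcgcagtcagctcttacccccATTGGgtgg
B2m: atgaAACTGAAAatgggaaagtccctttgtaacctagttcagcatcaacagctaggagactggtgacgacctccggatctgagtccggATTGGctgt

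Labelled knockout and flox ganglia differed in few antigen presentation genes. The lysosomal proteases Ctss, Lgmn and Ctsl were higher in labelled knockout libraries by 0.72, 0.62 and 0.41 on the log2 scale. The class II loading chain H2-DMa and the chaperone calreticulin (Calr) were lower, with log2 fold changes of -0.58 and -0.32. The class II chains and Cd74 lay between -0.53 and -0.47 without passing the test, and class I chains and the immunoproteasome had values on both sides of 0. Thus 3 members rose and 2 fell of 32 tested at an adjusted p under 0.05 (edgeR quasi-likelihood test with batch in the model, Benjamini-Hochberg adjustment over all genes). Over all genes 15.5% were called, 7.97% higher and 7.51% lower, so 5 of 32 is a share near the background and not a result about the members. In 20 of 32 members the log2 fold change was below 0, beside 50.8% of all genes, and the median was -0.14 over the members and -0.0078 over all genes.

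**Figure D1:**
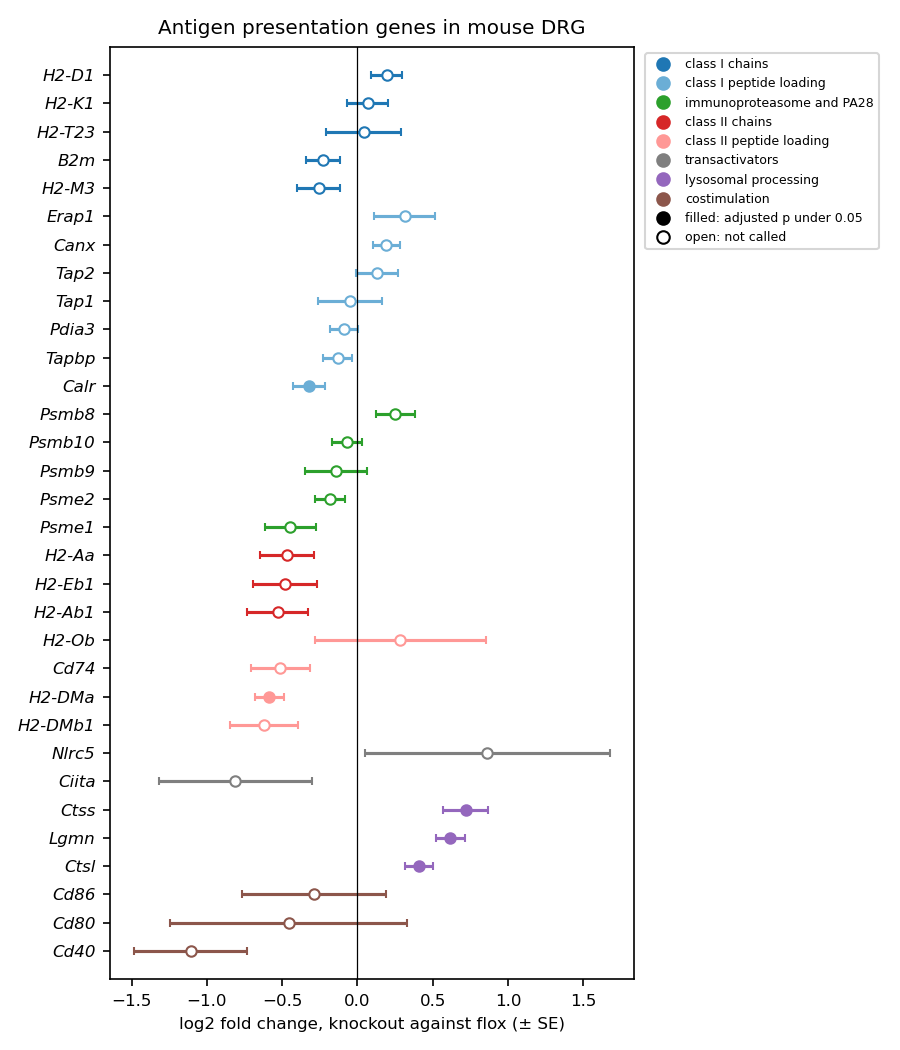
Log2 fold changes of the 32 tested members, labelled knockout against flox with batch in the model, grouped by role on the vertical axis. Points are estimates, bars are ± SE, and filled points have an adjusted p under 0.05. The 3 filled lysosomal proteases lie right of 0, and filled H2-DMa and Calr lie left of it.

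Class II loading factors and class II chains had the lowest median log2 fold changes of the 8 roles. Over chains and loading factors, 6 of 7 tested members were below 0 with an unadjusted p under 0.05, where 15.5% of all genes were lower at that level, and their median log2 fold change was -0.51. Only 1 of the 7, H2-DMa, passed the adjusted test. H2-DMa (chr17:34119541-34139101) is the alpha chain of H2-DM, which exchanges the invariant chain fragment for a peptide. In batch 1 it was at 19.1, 20.5 and 20.9 CPM in flox libraries 1 to 3 and at 12.2, 14.5, 12.1 and 14.1 CPM in labelled knockout libraries 1 to 4. In batch 2 it was at 30.5, 33.3, 37.3 and 34.3 CPM in flox libraries 4 to 7 and at 20.5, 24.4 and 24.03 CPM in labelled knockout libraries 5 to 7. Each labelled knockout library was below each flox library of its batch, a pattern that 2.25% of all genes showed in this direction. The log2 fold change was -0.58 ± 0.098 (SE), or 0.667 of the flox level, with an adjusted p of 0.00108 by edgeR. With batch 1 alone the adjusted p was 0.0790, and without the batch term 0.125.

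The chains themselves did not pass. H2-Ab1 (chr17:34257689-34269419), a beta chain that presents peptide with H2-Aa, had the lowest p of the 3. It was at 97.9, 105 and 99.5 CPM in flox and 69.0, 74.0, 54.5 and 139 CPM in labelled knockout libraries of batch 1, and at 148, 171, 189 and 159 CPM in flox and 61.2, 105 and 122 CPM in labelled knockout libraries of batch 2. The groups overlapped in batch 1 through labelled knockout library 4, which was higher than each flox library there, and did not overlap in batch 2. The log2 fold change was -0.53 ± 0.20, with an adjusted p of 0.0858 by edgeR. H2-Aa had a log2 fold change of -0.47 ± 0.18 (adjusted p 0.0879 by edgeR) and H2-Eb1 of -0.48 ± 0.21 (0.133). Cd74, the chaperone of class II chains, had -0.51 ± 0.20 (0.0913), and H2-DMb1, the partner of H2-DMa, had -0.62 ± 0.22 (0.0706). H2-Ob, a subunit of the H2-DM inhibitor H2-O, was at 0.104 to 2.22 CPM and had 0.29 ± 0.57 (0.769). H2-Oa, the other H2-O subunit, held 1 to 26 counts in a library and was not tested.

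The count of class II genes called lower, 1 in the fit above, changed with the libraries and the test. Without labelled knockout library 4, 8 members were lower at an adjusted p under 0.05 by edgeR, and 6 of these were class II genes: H2-Aa, H2-Ab1, H2-Eb1, H2-DMa, H2-DMb1 and Cd74. Over all genes 9.85% were called lower in that fit. Library 4 held the highest value of its group for each of these 6 genes except H2-DMa, with Cd74 at 231 CPM against 103 to 114 CPM. Leaving it out was therefore bound to move those fold changes down, and the p-values that follow are not separate evidence. H2-Ab1 then had a log2 fold change of -0.71 ± 0.14 (adjusted p 0.00323), Cd74 -0.70 ± 0.13 (0.00234), H2-Eb1 -0.69 ± 0.14 (0.00445), H2-Aa -0.63 ± 0.14 (0.00556) and H2-DMb1 -0.79 ± 0.19 (0.0109). H2-DMa changed little between the fits, at -0.60 ± 0.10 (0.00132). With all libraries kept, limma on log2(TPM + 1) called 4 class II genes lower (H2-Aa, H2-Ab1, H2-DMa and H2-DMb1), beside 6.18% of all genes, and limma on TPM rescaled to equal sums called 6, beside 11.3%. Batch 2 alone gave 3 (H2-Ab1, H2-DMa and Cd74), beside 5.99%. Limma on log2(TPM + 0.1) gave 4, beside 6.15%. The replicate number as a block in place of batch, which mixes batch with genotype, gave 6, beside 3.74%. The remaining alternatives gave fewer. The count was 1 with scaling by relative log expression (beside 7.28%) and with no filter (4.73%). It was 2 with DESeq2 (7.17%) and without labelled knockout libraries 6 and 7 (5.48%). Batch 1 alone (0.687%) and no batch term (1.52%) gave 0. Leaving out any single library other than labelled knockout 4 gave 1 or 2, beside 4.52% to 8.6%. The other 2 members called without library 4 were Calr (-0.35 ± 0.11, 0.0329) and Psme1 (-0.56 ± 0.16, 0.0223). Library 4 also held the highest Psme1 value of its group.

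**Figure D2:**
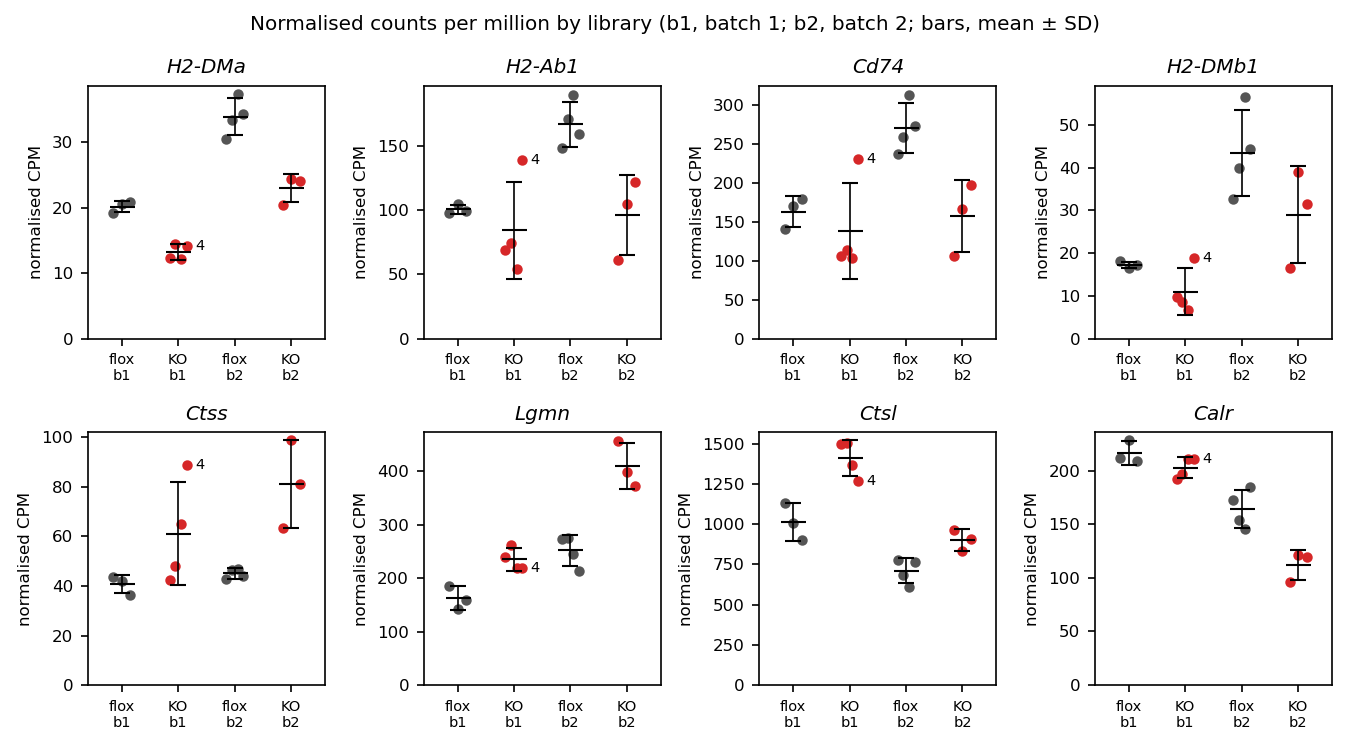
Normalised CPM in each mouse library for 8 members, by labelled genotype (KO, labelled knockout) and batch (b1, b2). Points are libraries, lines and bars are mean ± SD, and 4 marks labelled knockout library 4. H2-DMa separates the genotypes in both batches, while for H2-Ab1 and Cd74 library 4 lies above the batch 1 flox libraries.

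Markers of antigen presenting cells were measured beside these genes. The 10 macrophage markers summed to 172 to 192 TPM in flox and 131 to 187 TPM in labelled knockout libraries of batch 1, and to 225 to 312 and 218 to 366 TPM in batch 2. Of these 10 only Ptprc, the pan-leukocyte phosphatase CD45, passed the test and was higher (0.94 ± 0.22, adjusted p 0.00956 by edgeR). The log2 fold change was below 0 in 7 of the 10. At an unadjusted p under 0.05, 2 of the 10 were lower, beside 15.5% of all genes. They were Cx3cr1 (-0.89 ± 0.39, adjusted p 0.128 by edgeR) and Cd68 (-0.47 ± 0.22, 0.157). Dendritic cell markers summed to at most 11.1 TPM and 0 of 6 tested passed, at 0 with an unadjusted p under 0.05. B cell markers summed to 3.88 to 19.3 TPM in flox and 2.98 to 3.64 TPM in labelled knockout libraries of batch 1. In batch 2 the sums were close, at 4.09 to 7.34 and 3.57 to 6.78 TPM. Ms4a1 (CD20) was lower (-2.08 ± 0.56, adjusted p 0.0199 by edgeR). Pax5, which was not tested, was at 0 in all 3 labelled knockout libraries of batch 2. Over both batches it reached 0.335 TPM in labelled knockout and 0.295 TPM in flox libraries. The part of these cells in the class II values was not tested, and in bulk ganglia fewer cells of a type and less RNA per cell cannot be told apart. Relative to the macrophage complement gene C1qa, Cd74 had a mean log2 TPM ratio of 2.18 ± 0.21 (SD, n = 3) in flox and 2.24 ± 0.13 (n = 4) in labelled knockout libraries of batch 1. In batch 2 it was 2.66 ± 0.10 (n = 4) in flox and 1.81 ± 0.27 (n = 3) in labelled knockout libraries, where the ranges of 2.54 to 2.75 and 1.55 to 2.09 did not overlap. C1qa itself had a log2 fold change of -0.10 ± 0.19, and the 10 markers ran from -0.89 to 0.94. The ratio thus depends on the marker taken. It was chosen with earlier results of these data known and carries no test, so it does not give Cd74 per macrophage.

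Class I chains showed no called difference. None of the 5 tested passed, and 0 of 5 had an unadjusted p under 0.05, against 30.9% of all genes. Their median log2 fold change was 0.042, with a range from -0.26 for H2-M3 to 0.19 for H2-D1. B2m (chr2:122147686-122153083), the light chain that every class I molecule needs, had the lowest p. It was at 408, 563 and 537 CPM in flox and 423, 383, 333 and 524 CPM in labelled knockout libraries of batch 1, and at 239, 222, 294 and 276 CPM in flox and 229, 244 and 206 CPM in labelled knockout libraries of batch 2. The groups overlapped in both batches, and the log2 fold change was -0.23 ± 0.12 with an adjusted p of 0.188 by edgeR. H2-K1 and H2-D1, the classical heavy chains, had 0.068 ± 0.14 and 0.19 ± 0.10, and H2-T23 had 0.042 ± 0.25. Class I heavy chains are near-identical to one another and to Qa and Tla genes over long stretches, so the division of reads among them is uncertain, the direction of H2-K1 turned when TPM was rescaled to equal sums, and that of H2-T23 turned between counts and TPM.

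Peptide loading factors of class I were likewise mixed, with a median of -0.049 and 1 of 7 called. Calr (chr8:84841850-84846934), a lectin chaperone of the loading complex that also folds many other glycoproteins, was at 212, 229 and 209 CPM in flox and 192, 197, 211 and 211 CPM in labelled knockout libraries of batch 1. Batch 2 values were 172, 154, 146 and 185 CPM in flox and 96.0, 121 and 119.7 CPM in labelled knockout libraries. The groups overlapped in batch 1 and were apart in batch 2, where each labelled knockout library was lower. The log2 fold change over both batches was -0.32 ± 0.10 with an adjusted p of 0.0468 by edgeR. This call was lost in 8 of 11 alternatives, among them scaling by relative log expression (adjusted p 0.0547). With 1 library left out in turn it was lost in 11 of 14 further fits (edgeR adjusted p 0.0329 to 0.118 over the 14). Of its partners, Canx had 0.19 ± 0.091 (adjusted p 0.163) and Pdia3 -0.087 ± 0.093 (0.562). The transporter subunits Tap1 and Tap2, tapasin (Tapbp) and the peptide trimming protease Erap1 had -0.049, 0.13, -0.13 and 0.31, with none passing the test. Tap1 and Psmb9 overlap at their starts on opposite strands, and since the labels do not state whether strand was kept, reads of that overlap cannot be told apart.

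The immunoproteasome and its activator held 0 called members of 5, and 1 with an unadjusted p under 0.05, where 30.9% of all genes reached that level. The median log2 fold change was -0.14. Psme1 (chr14:55578123-55581529), a subunit of the PA28 activator that opens the proteasome, had the lowest p. It was at 42.1, 70.9 and 53.9 CPM in flox and 35.4, 31.0, 37.0 and 59.4 CPM in labelled knockout libraries of batch 1, and at 83.0, 59.8, 93.4 and 82.9 CPM in flox and 40.9, 66.8 and 68.9 CPM in labelled knockout libraries of batch 2. Both batches overlapped, and the log2 fold change was -0.45 ± 0.17 (adjusted p 0.0901 by edgeR). Its partner Psme2 had -0.18 ± 0.099. The inducible catalytic subunits Psmb8, Psmb9 and Psmb10 had 0.25 ± 0.13, -0.14 ± 0.20 and -0.069 ± 0.10, with adjusted p of 0.204, 0.678 and 0.682.

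Each inducible subunit replaces one standard subunit, and the ratio of the pair within a library does not depend on the scale of that library. Psmb8 stood at a mean log2 TPM ratio to Psmb5 of -3.69 ± 0.53 (SD, n = 3) in flox and -3.65 ± 0.32 (n = 4) in labelled knockout libraries of batch 1. In batch 2 it was -4.60 ± 0.16 (n = 4) and -4.32 ± 0.10 (n = 3), with ranges of -4.78 to -4.44 and -4.41 to -4.22 that did not overlap. Psmb9 to Psmb6 was -5.29 ± 0.89 and -5.98 ± 0.50 in batch 1, and -5.52 ± 0.19 and -5.41 ± 0.37 in batch 2, for flox and labelled knockout. Psmb10 to Psmb7 was -1.13 ± 0.35 and -1.63 ± 0.27 in batch 1, and -1.30 ± 0.27 and -1.41 ± 0.15 in batch 2. The ranges of the latter pairs overlapped in both batches. Standard subunits were thus above their inducible counterparts in each mouse library.

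**Figure D3:**
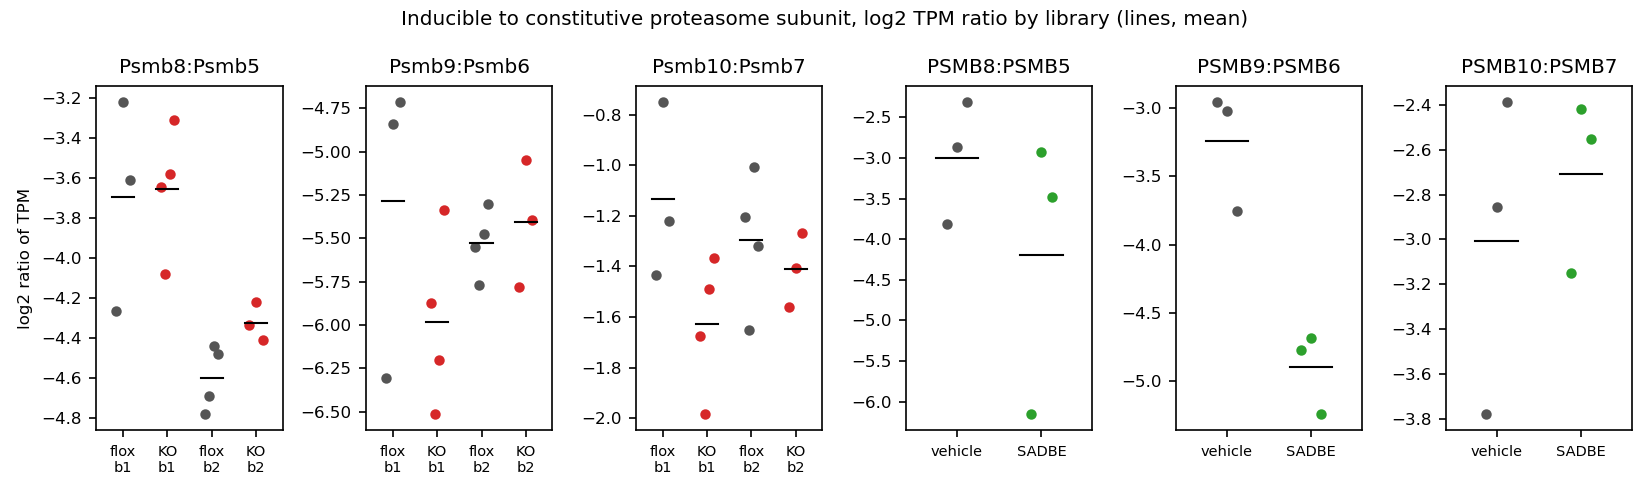
Log2 ratio of TPM between each inducible proteasome subunit and the standard subunit it replaces, in mouse libraries by labelled genotype and batch and in monkey libraries by treatment, with a separate vertical axis for each panel. Points are libraries and lines are means. For Psmb8 in batch 2 and PSMB9 in monkeys the 2 groups do not overlap.

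Of the lysosomal proteases 3 of 3 tested members were called higher, beside 7.97% of all genes, with a median log2 fold change of 0.62. A wider list of 12 other lysosomal proteases, inhibitors and membrane proteins went both ways, with 3 higher, 2 lower and a median of 0.0052. Lgmn (chr12:102394084-102439813), the asparaginyl endopeptidase legumain that cuts antigens and activates cathepsins, was at 186, 142 and 159 CPM in flox and 240.0, 262, 219 and 219 CPM in labelled knockout libraries of batch 1. The batch 2 libraries held 274, 276, 245 and 213 CPM in flox and 456, 399 and 372 CPM in labelled knockout libraries. The groups did not overlap in either batch, as for 3.25% of all genes in this direction, and the log2 fold change was 0.62 ± 0.098 (adjusted p 0.000692 by edgeR). Ctss (chr3:95526786-95556403), cathepsin S, the protease that trims the invariant chain in antigen presenting cells, was at 43.5, 41.9 and 36.6 CPM in flox and 42.6, 48.1, 65.1 and 88.9 CPM in labelled knockout libraries of batch 1. In batch 2 it was at 42.8, 46.6, 47.0 and 43.9 CPM in flox and 63.6, 98.9 and 81.1 CPM in labelled knockout libraries. Labelled knockout library 1 lay within the flox range of batch 1, and batch 2 did not overlap. The log2 fold change of Ctss was 0.72 ± 0.15, or 1.65 times the flox level, with an adjusted p of 0.00504 by edgeR.

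Ctsl (chr13:64359337-64370890), cathepsin L, which cuts the invariant chain in thymic epithelium and acts in lysosomes of most cells, was the most abundant of the 3. It was at 1131, 1008 and 901 CPM in flox and 1498, 1505, 1371 and 1266 CPM in labelled knockout libraries of batch 1. Batch 2 values were 777, 684, 612 and 765 CPM in flox and 963, 831 and 909 CPM in labelled knockout libraries. The groups did not overlap in either batch, and the log2 fold change was 0.41 ± 0.092 with an adjusted p of 0.00757 by edgeR. Of 11 alternatives the call was lost in 6 for Ctsl: the 3 limma fits (adjusted p 0.0511 to 0.0524), batch 1 alone (0.146), batch 2 alone (0.0908) and no batch term (0.209). It was lost in 3 for Lgmn, with batch 1 alone (0.114), no batch term (0.241) and the replicate number as a block in place of batch (0.0860), and in 1 for Ctss, batch 1 alone (0.296). Leaving out any 1 mouse library kept 3 of 3 called. Without labelled knockout libraries 6 and 7, which held the Y-linked transcript, Lgmn was at 0.64 (adjusted p 0.00365 by edgeR), Ctss at 0.56 (0.0443) and Ctsl at 0.47 (0.0147). In the same fit H2-DMa was at -0.64 (0.00364) and Calr at -0.30 (0.175).

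Ctss and the class II genes parted within libraries. The log2 TPM ratio of Ctss to Cd74 ran from -2.41 to -1.80 in flox and from -1.50 to -0.78 in labelled knockout libraries of batch 1. In batch 2 it ran from -2.83 to -2.57 in flox and from -1.40 to -0.85 in labelled knockout libraries, so the genotypes were apart in both. Against C1qa, Ctss ran from -0.071 to 0.24 and from 0.76 to 1.36 in batch 1, and from -0.20 to 0.17 and from 0.41 to 1.24 in batch 2, for flox and labelled knockout. These ratios were chosen after the values of both genes were seen and carry no test. All 8 neutrophil markers were called higher, beside 7.97% of all genes, with a median log2 fold change of 3.11. Their batch 1 sums were 521 to 1725 TPM for flox and 4712 to 16074 TPM for labelled knockout. The corresponding batch 2 sums were 121 to 257 and 1358 to 2421 TPM. Among labelled knockout libraries the neutrophil sum was thus higher in batch 1 than in batch 2. Mean CPM of Ctss and Lgmn was lower there in batch 1 (61.2 against 81.2, and 235 against 409). That of Ctsl was higher (1410 against 901). S100a8, S100a9 and Retnlg had 3.12 ± 0.37, 3.19 ± 0.38 and 2.89 ± 0.38 (adjusted p 9.83e-05, 9.83e-05 and 0.000190 by edgeR). No neutrophil marker was at 0 in any library, and the part of neutrophils in the protease values was not tested.

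The sum of the 3 class II chains and that of the 4 class I heavy chains can be set against each other in the same way. Their log2 TPM ratio was -1.62 ± 0.17 (SD, n = 3) in flox and -2.07 ± 0.34 (n = 4) in labelled knockout libraries of batch 1. In batch 2 it was -0.041 ± 0.15 (n = 4) and -0.87 ± 0.26 (n = 3). The ranges overlapped in batch 1 (-1.82 to -1.48 and -2.38 to -1.70) and were apart in batch 2 (-0.24 to 0.11 and -1.09 to -0.58). Across classes the medians were 0.042 for class I chains, -0.049 for class I loading, -0.14 for the immunoproteasome, -0.48 for class II chains and -0.55 for class II loading. The difference between classes was not tested.

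Transactivators and costimulatory genes rested on few counts, and 0 of 5 passed the test. Ciita (chr16:10480059-10528418), the master regulator of class II genes, was at 1.07, 1.96 and 1.72 CPM in flox and 1.13, 1.86, 0.594 and 1.43 CPM in labelled knockout libraries of batch 1. The batch 2 libraries held 0.452, 3.06, 0.677 and 1.93 CPM in flox and 0.566, 0.190 and 1.10 CPM in labelled knockout libraries, overlapping in both. These values rest on 5 to 105 counts a library, and the log2 fold change was -0.81 ± 0.51 (adjusted p 0.294 by edgeR). Nlrc5, the class I transactivator, held 1 to 189 counts and had 0.86 ± 0.81 (0.505). Cd40 (chr2:165055627-165072948), the receptor through which helper T cells license antigen presenting cells, had the lowest p of the costimulatory genes. It was at 2.23, 2.37 and 1.42 CPM in flox and 0.628, 0.705, 0.924 and 0.953 CPM in labelled knockout libraries of batch 1, and at 3.58, 2.91, 1.42 and 0.716 CPM in flox and 0.607, 1.48 and 1.36 CPM in labelled knockout libraries of batch 2. Batch 1 did not overlap and batch 2 did, and the log2 fold change was -1.11 ± 0.38 (adjusted p 0.0574 by edgeR). The CD28 ligands Cd80 and Cd86 had -0.46 ± 0.79 and -0.29 ± 0.48, with adjusted p of 0.733 and 0.720. Cd40 was called lower by DESeq2 (-1.10, adjusted p 0.0258) and by edgeR without flox library 7 (-1.28, adjusted p 0.0250), and not in the other alternatives.

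The genotype difference of a member was not called as different between batches for any of 32, where 1.03% of all genes had a called interaction. An unadjusted p under 0.05 was reached by 4 members, beside 13.9% of all genes. Tap2 had an interaction of 0.76 ± 0.21 on the log2 scale (batch 2 minus batch 1, edgeR adjusted p 0.0912), with -0.29 ± 0.16 in batch 1 and 0.51 ± 0.14 in batch 2. Calr had -0.45 ± 0.18 (adjusted p 0.249), H2-Ob 2.32 ± 0.99 (0.294) and Nlrc5 3.46 ± 1.3 (0.224). Taken alone, batch 1 gave 0 called members, beside 1.12% of all genes higher and 0.687% lower. Batch 2 gave 3 higher (Tap2, Ctss and Lgmn) and 4 lower (Calr, H2-Ab1, H2-DMa and Cd74), beside 7.22% and 5.99% of all genes. H2-DMa was at -0.64 ± 0.16 and -0.56 ± 0.15 in the batches, Ctss at 0.56 ± 0.24 and 0.85 ± 0.15, and Lgmn at 0.50 ± 0.14 and 0.70 ± 0.14.

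**Figure D4:**
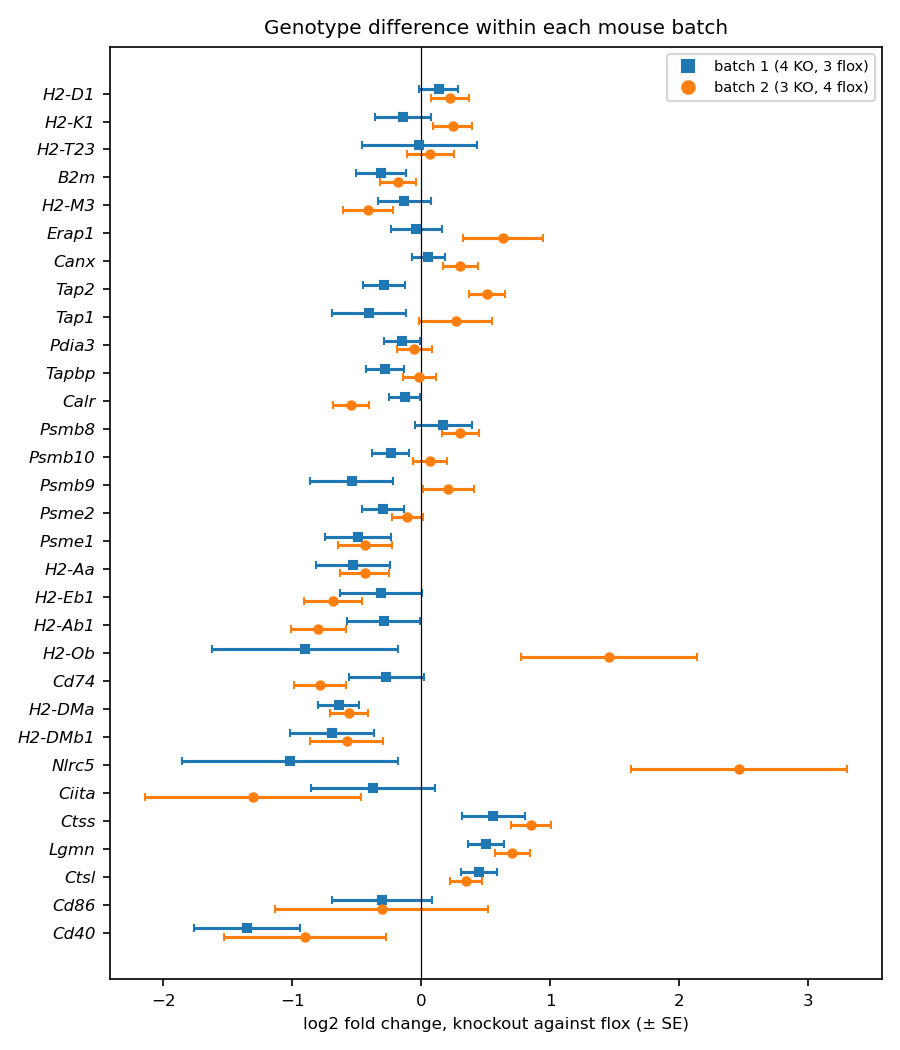
Log2 fold changes of labelled knockout against flox fitted in each mouse batch alone, ± SE, for members that could be fitted in both. Squares are batch 1 (4 labelled knockout, 3 flox) and circles batch 2 (3 labelled knockout, 4 flox). The 3 lysosomal proteases lie right of 0 and H2-DMa left of 0 in both batches, while Nlrc5, H2-Ob and Tap2 lie on opposite sides.

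Other genes of the pathway were read from lists drawn up with earlier results of these data known. A list of 16 genes held standard proteasome subunits and the activators Psme3 and Psme4. Of these 16, 5 rose and 0 fell, beside 7.97% and 7.51% of all genes, with a median log2 fold change of 0.20. The 5 that rose were Psma7, Psmb3, Psma4, Psma5 and Psmb1, named here after their values were seen, and they lay between 0.29 and 0.42. Of 12 tested class I-like genes, 1 rose and 1 fell: Cd1d1, which presents lipids, had 1.13 ± 0.23 (adjusted p 0.00411 by edgeR) and Fcgrt, the neonatal Fc receptor, had -0.97 ± 0.21 (0.00650). Of the 12 other lysosomal genes, Lamp2, a lysosomal membrane protein, had 0.51 ± 0.11 (0.00554) and Ctsk, a collagen-degrading cathepsin, had -1.27 ± 0.28 (0.00647). Of 8 costimulators and checkpoint ligands, Lgals9 (0.68 ± 0.096, 0.000254) and Cd200 (0.39 ± 0.090, 0.00932) rose and Icosl, a ligand of the T cell receptor ICOS, fell (-1.07 ± 0.26, 0.0115). Of 11 genes of folding in the endoplasmic reticulum and peptide trimming 2 rose, and of 12 of class II regulation 1 fell.

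Some markers of other cells in these ganglia also differed with the labelled genotype. The shares of all genes to set beside these counts are 7.97% called higher and 7.51% lower. All 5 fibroblast markers fell (Col1a1 -2.04 ± 0.26, Col1a2 -1.61 ± 0.22 and Col3a1 -1.58 ± 0.27), and their sum was 1513 to 3313 TPM in flox and 744 to 1678 TPM in labelled knockout libraries. All 5 Schwann cell markers fell (Prx -1.18 ± 0.23, Mbp -0.86 ± 0.17 and Sox10 -0.75 ± 0.16), with sums of 1853 to 4239 and 919 to 1838 TPM. Of 8 sensory neuron markers 3 rose (Isl1 1.09 ± 0.11, Tubb3 0.59 ± 0.091 and Prph 0.45 ± 0.13), and of 4 tested T and NK cell markers 1 rose (Nkg7 1.83 ± 0.42). Satellite glia markers went both ways: of 5, 1 was called higher (Cdh19 0.70 ± 0.16), 3 were below 0 without a call, and the median log2 fold change was -0.087. The satellite glia sum was 313 to 578 TPM in flox and 367 to 518 TPM in labelled knockout libraries of batch 1, and 557 to 1071 and 1796 to 3047 TPM in batch 2, with Fabp7, which was not called (adjusted p 0.287), at up to 2936 TPM. Endothelial and skeletal muscle markers had 0 called of 4 and of 5. The muscle sum ran from 13.8 to 2010.3 TPM in labelled knockout and from 33.4 to 4007 TPM in flox libraries. The part of these cells in the member values was not tested.

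In monkeys, no member passed the test after SADBE treatment of the skin. By edgeR 0 of 22 tested members were called, and 0 of 17988 genes (0%). DESeq2 called 28 genes and none of the members. At an unadjusted p under 0.05, 2 members were lower and 0 higher, beside 1.62% of all genes lower and 550 genes (3.06%) in either direction. In 18 of 22 members the log2 fold change was below 0, beside 50.5% of all genes, and the median was -0.35. The immunoproteasome and PA28 genes had the lowest median of the classes with 3 or more members, at -1.14.

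PSMB9, an inducible catalytic subunit, had the lowest p of the members. It was at 33.1, 49.2 and 53.3 CPM in vehicle libraries 1 to 3 and at 13.9, 18.8 and 13.2 CPM in SADBE libraries 1 to 3, so each SADBE library was lower. Its log2 fold change was -1.56 ± 0.42 (edgeR adjusted p 0.999). NLRC5 was at 15.4, 18.3 and 10.6 CPM in vehicle and 5.04, 5.62 and 6.25 CPM in SADBE libraries, again without overlap, with -1.39 ± 0.45 (edgeR adjusted p 0.999). ERAP1 was the third member whose groups did not overlap, at -1.21 ± 0.63, and 4.56% of all genes showed that pattern downward. With 1 library left out in turn, those of SADBE 2 and 3 included, PSMB9 ran from -1.76 to -1.45 and NLRC5 from -1.60 to -1.20, with 0 members called. No member showed separate groups upward, beside 4.63% of all genes.

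PSME2, the beta subunit of PA28, was at 108, 216 and 332 CPM in vehicle and 66.4, 123 and 109 CPM in SADBE libraries. SADBE libraries 2 and 3 lay above vehicle library 1, and the log2 fold change was -1.14 ± 0.53 (edgeR adjusted p 0.999). PSMB8 was at 34.2, 63.1 and 83.5 CPM in vehicle and 8.61, 38.5 and 32.1 CPM in SADBE libraries, with overlap and -1.19 ± 0.62 (edgeR adjusted p 0.999). PSMB10 and PSME1 were nearer to 0, at -0.21 ± 0.52 and -0.33 ± 0.44. The log2 TPM ratio of PSMB9 to PSMB6 ran from -3.75 to -2.95 in vehicle and from -5.24 to -4.68 in SADBE libraries without overlap, while those of PSMB8 to PSMB5 and PSMB10 to PSMB7 overlapped.

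**Figure D5:**
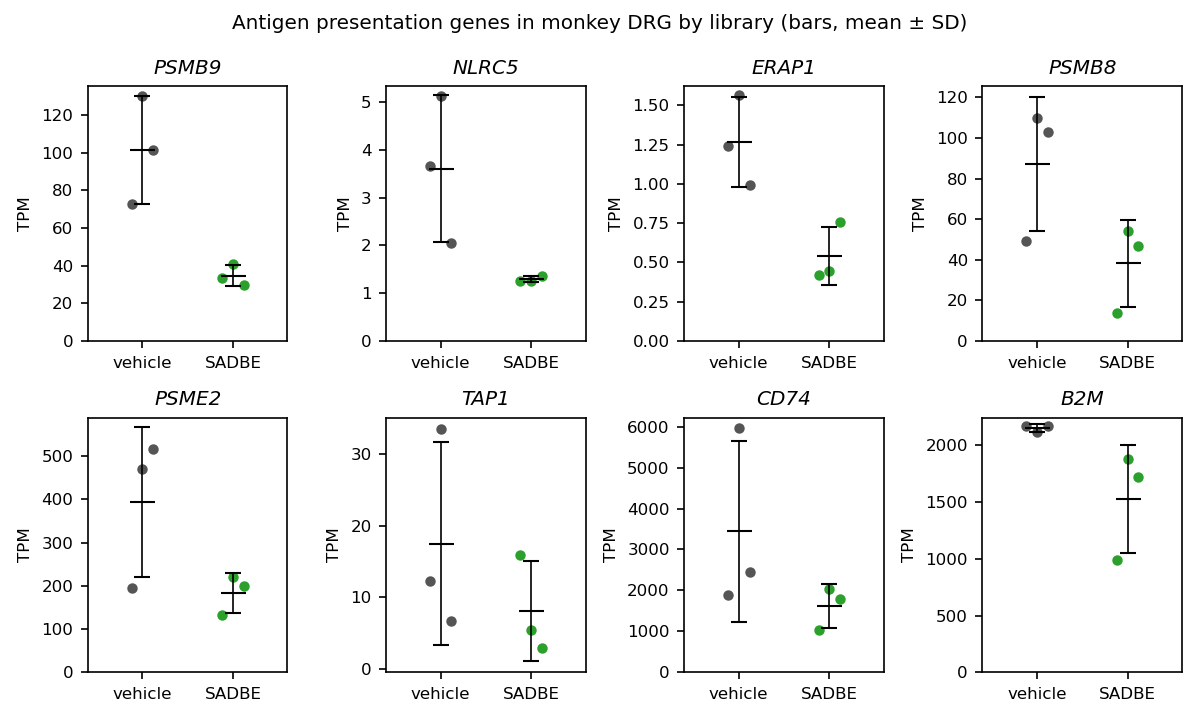
TPM of 8 members in each monkey library, vehicle against SADBE, with mean ± SD as bars. Vertical axes differ between panels. PSMB9, NLRC5 and ERAP1 are lower in each SADBE library than in each vehicle library, and so is B2M on this scale, though not in normalised CPM, while the other 4 panels overlap.

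CD74, the class II chaperone, had the highest mean of the members in vehicle libraries, at 3443 ± 2209.7 TPM (SD, n = 3), with 1623 ± 531 TPM after SADBE and a log2 fold change of -1.02 ± 0.61. B2M, the class I light chain, was at 2149 ± 32.5 and 1528 ± 475 TPM without overlap, but overlapped in normalised CPM, with a log2 fold change of -0.52 ± 0.50. The lysosomal proteases CTSS, CTSL and LGMN had -0.25 ± 0.63, -0.11 ± 0.41 and 0.26 ± 0.44, and the thiol reductase IFI30, which opens disulfide bonds of antigens, had -0.88 ± 0.64. CIITA had -0.34 ± 0.61, CD86 -0.94 ± 0.83 and CD40 -0.36 ± 0.70. The SE of these members was between 0.41 and 0.83, so log2 differences of that size were not detectable. The macrophage marker sum was 627 to 835 TPM in vehicle and 426 to 742 TPM in SADBE libraries, and 0 of 10 markers were called by edgeR, with 0 at an unadjusted p under 0.05.

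Of the same 16 genes in monkeys, standard proteasome subunits with PSME3 and PSME4, 0 were called by edgeR. At an unadjusted p under 0.05, 1 was lower, beside 1.62% of all genes, and the median was -0.35. The H2 genes have no monkey counterpart in the list, so class II chains and class I heavy chains are not analysed here in monkeys.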

How the data were processed

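RNA sequencing of dorsal root ganglia gave 14 mouse and 6 monkey libraries. The authors deposited estimated counts and TPM per gene; kallisto and the build GRCm38 are named per the submitters' processing notes, on the monkey samples too, and kallisto's version, the annotation, the filters and strandedness are not given in the sources used here. TPM, a share of transcripts corrected for their length, was deposited by the authors with column sums that differ between mouse libraries. Estimated counts were rounded here, and a row naming no gene (0.0785% to 0.186% of counts) was left out. Total counts, in units of 1000000, were 12.1 to 52.1 in mice and 9.02 to 27.1 in monkeys.

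Genes were kept by filterByExpr (minimum count 10, minimum total 15), scaled by TMM and tested by quasi-likelihood (edgeR 4.0.16, R 4.3.3), with batch and genotype in mice and treatment in monkeys. P-values were adjusted by Benjamini-Hochberg over all genes, with a threshold of 0.05. Normalised CPM are counts per 1000000 of TMM-scaled library size, and TPM served for levels between genes. Library pairs within groups were compared by chi-square, and 0 were identical. Labelled replicate numbers were checked for pairing by the correlation of deviations from group means. Gene positions are from GENCODE M21 (GRCm38) and promoter windows from RefSeq (GRCm38.p6), of which 27 of 34 members had one. Fitting was tested on simulated data.

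The members and lists were chosen with earlier results of these data known. Values per library are given for called members, for the member of lowest p in each role without a call, and for 4 monkey members of lowest p. Of other pathway genes, up to 8 called ones of lowest p are named, and up to 3 called markers per list; 1 list of other pathway genes is not reported here. Alternatives were relative log expression scaling, no filter, DESeq2 1.42.0, limma 3.58.1 on log2 TPM with pseudocounts of 1 and 0.1 or rescaled, a replicate block, single batches, no batch term, no labelled knockout libraries 6 and 7, and leaving out each library.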

Additional observations from a re-analysis of the deposited data

Results flagged for a closer look

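In labelled knockout library 4, Psmb9 stood at 13.1 CPM and Cd74 at 231.0 CPM, far from the other 3 libraries of its group, which lay at 6.86 to 7.92 CPM and 103 to 114 CPM. These were the 2 of 66 groups of 4 libraries with 1 library so far from the rest. Chance flags about 1 in 20 such groups.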

How the results depend on the processing

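The count of members higher in labelled knockout libraries, 3 in the fit with batch, was 0 with batch 1 only and 1 without a batch term. The count of members lower is given here with the share of all genes called lower in the same fit. It was 2 (7.51%) in the fit with batch, 1 with scaling by relative log expression (7.28%) and with no filter on low counts (4.73%), 4 with DESeq2 (7.17%), limma on log2(TPM + 1) (6.18%), limma on log2(TPM + 0.1) (6.15%) and batch 2 only (5.99%), 9 with limma on TPM rescaled to equal sums (11.3%), 0 with batch 1 only (0.687%) and 0 without a batch term (1.52%). With the replicate number as a block in place of batch it was 7 (3.74%), of which 6 were class II genes. Number 4 is batch 1 in labelled knockout and batch 2 in flox, so this block mixes batch with genotype. Class II genes differed between batches, with H2-Aa at a mean of 70.6 CPM in flox of batch 1 and 134 CPM in flox of batch 2. The part of batch in these calls was not tested. Same-numbered mouse libraries correlated at -0.22 to 0.27, and those of monkeys at 0.23, -0.39 and 0.30. These are deviations from means of only 3 or 4 libraries, so they cannot decide whether the numbers pair libraries. Own numbers were the best partner for replicates 3 and 5 in mice and for replicate 3 in monkeys, and the block called 0 monkey members. Leaving out 1 library gave 3 higher in every case and 1 to 8 lower, with 8 without labelled knockout library 4 and 1 without labelled knockout libraries 1, 2, 3, 5 or 7 or flox libraries 2, 4, 5 or 6. The share of higher calls among all called genes was 51.5% in the edgeR fit, 48.2% in limma on log2(TPM + 1) and 30.9% in limma on rescaled TPM, and the median difference per gene in log2 fold change from the edgeR fit was 0.018 and -0.081 in these limma fits. The cause of these changes was not tested.

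Signs turned for members without a call. H2-K1 was at -0.025 with rescaled TPM, -0.14 with batch 1 only, -0.088 without labelled knockout libraries 6 and 7, and -0.028 to 0.13 with 1 library left out. H2-T23 was at -0.0074 and -0.0076 in limma with pseudocounts 1 and 0.1, -0.11 with rescaled TPM, -0.014 with batch 1 only, -0.083 without libraries 6 and 7, and -0.19 to 0.16 with 1 library left out. With batch 2 only, Tap1 was at 0.27, Psmb9 at 0.21 and Psmb10 at 0.071. With batch 1 only, Tap2 was at -0.29, Erap1 at -0.036, H2-Ob at -0.90 and Nlrc5 at -1.02. Without libraries 6 and 7, Tap2 was at -0.016, H2-Ob at -0.0097 and Nlrc5 at -0.16. With 1 library left out, Tap1 ran from -0.16 to 0.043 and Cd86 from -0.61 to 0.016. In monkeys, leaving out 1 library gave ranges of -0.54 to 0.54 for TAP2, -0.10 to 1.15 for TAPBP, -0.29 to 0.35 for CALR, -0.015 to 0.94 for CANX, -0.51 to 0.30 for PSMB10, -0.67 to 0.14 for CIITA, -0.80 to 0.15 for CTSS, -0.34 to 0.094 for CTSL and -0.82 to 0.11 for CD40. No monkey member was called under any alternative. With 3 libraries a group, the SE of 0.40 to 0.83 limits what could be seen.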
